A study of Mus musculus with 8 samples.

Results

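Voltage-gated calcium channels of pancreatic islets were examined through 10 subunit genes, chosen by name: the pore-forming alpha1 genes Cacna1a, Cacna1c, Cacna1d, Cacna1e and Cacna1h, the beta genes Cacnb1, Cacnb2 and Cacnb3, and the alpha2delta genes Cacna2d1 and Cacna2d2. Each of the 10 names matched 1 entry among the 24537 genes counted. Islets, the endocrine part of the pancreas, came from male mice aged 12 weeks, with 4 Wfs1KO samples and 4 WT samples, and their poly(A) RNA was sequenced. The Wfs1 product, wolframin, spans the membrane of the endoplasmic reticulum, and the comparison asks how its loss changes islet gene expression. The labels give neither the knockout allele nor the strain, and they do not say whether islets of several mice were pooled. Nothing in the labels says what the replicate numbers mark, so p-values measure the spread between these islet samples.

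Wfs1 RNA, the check of the genotype labels, stood at 101.1, 105, 125 and 98.9 CPM (counts scaled to a common library size) in Wfs1KO replicates 1 to 4, against 182, 156, 190.1 and 188 CPM in WT replicates 1 to 4. It was lower in 4 of 4 Wfs1KO libraries but present in each (log2 fold change -0.74, SE 0.08, edgeR adjusted p = 5.06e-05). Counts are summed over the exons of a gene, and the remaining Wfs1 reads are therefore not tied to any exon. Exon counts per library lay between 15810830 and 27057617. Islet identity was plain in both genotypes: the 10 beta cell marker genes summed to 110036 to 135300 CPM in Wfs1KO and 162345 to 208041 CPM in WT, and no gene of the 9 marker lists was at 0 in every library. Replicates 1 and 2 parted from replicates 3 and 4 in both genotypes on the first principal component, which held 37.9% of the variance.

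A high-voltage-activated calcium channel is a complex: the alpha1 subunit forms the pore and carries the voltage sensor, a cytosolic beta subunit binds its intracellular linker and helps it to the cell surface, and an extracellular alpha2delta subunit raises the number of channels in the membrane. Low-voltage-activated (T-type) channels need the alpha1 subunit alone. In beta cells, glucose metabolism closes ATP-sensitive potassium channels, the membrane depolarises, and calcium entering through these channels triggers the exocytosis of insulin granules. L-type channels carry much of this entry in mouse beta cells, with P/Q-type and R-type channels also present.

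RNA of 4 of the 10 genes was lower in Wfs1KO islets. None was called higher in the main edgeR fit, which used all libraries, a filter on low counts and no block. Cacna1h was called higher in some other fits, given below. Both L-type pore genes fell, Cacna1c by 1.27-fold and Cacna1d by 1.14-fold, and the P/Q-type pore gene Cacna1a fell by 1.39-fold. Of the accessory subunits Cacnb2 fell by 1.18-fold, while Cacna2d1, the most abundant of the 10 per length, averaged 293 ± 24.0 CPM in Wfs1KO and 300.5 ± 25.2 CPM in WT (SD, n = 4 each) and was not called. A gene was called, and is said to have risen or fallen, where edgeR's quasi-likelihood test gave it a p under 0.05 after Benjamini-Hochberg adjustment over the 15733 genes tested. Of all tested genes 8.49% fell, 10.4% rose and 18.9% were called in either direction, against 4 fallen and 0 risen of the 10 channel genes, all of which passed the filter on low counts. The median log2 fold change of the 10 genes was -0.11, beside 0.01 over all tested genes. The genotypes did not overlap in 4 of the 10, the same 4 that fell, against 22.6% of all tested genes. With the replicate number as a block, Cacna1h was called higher (edgeR adjusted p = 0.0337) and the same 4 genes lower. With Wfs1KO replicate 1, Wfs1KO replicate 2 or WT replicate 3 left out, 2 of the 10 fell. In whole islets, a smaller share of the cells that use a gene and less of its RNA per cell cannot be told apart.

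**Figure D1:**
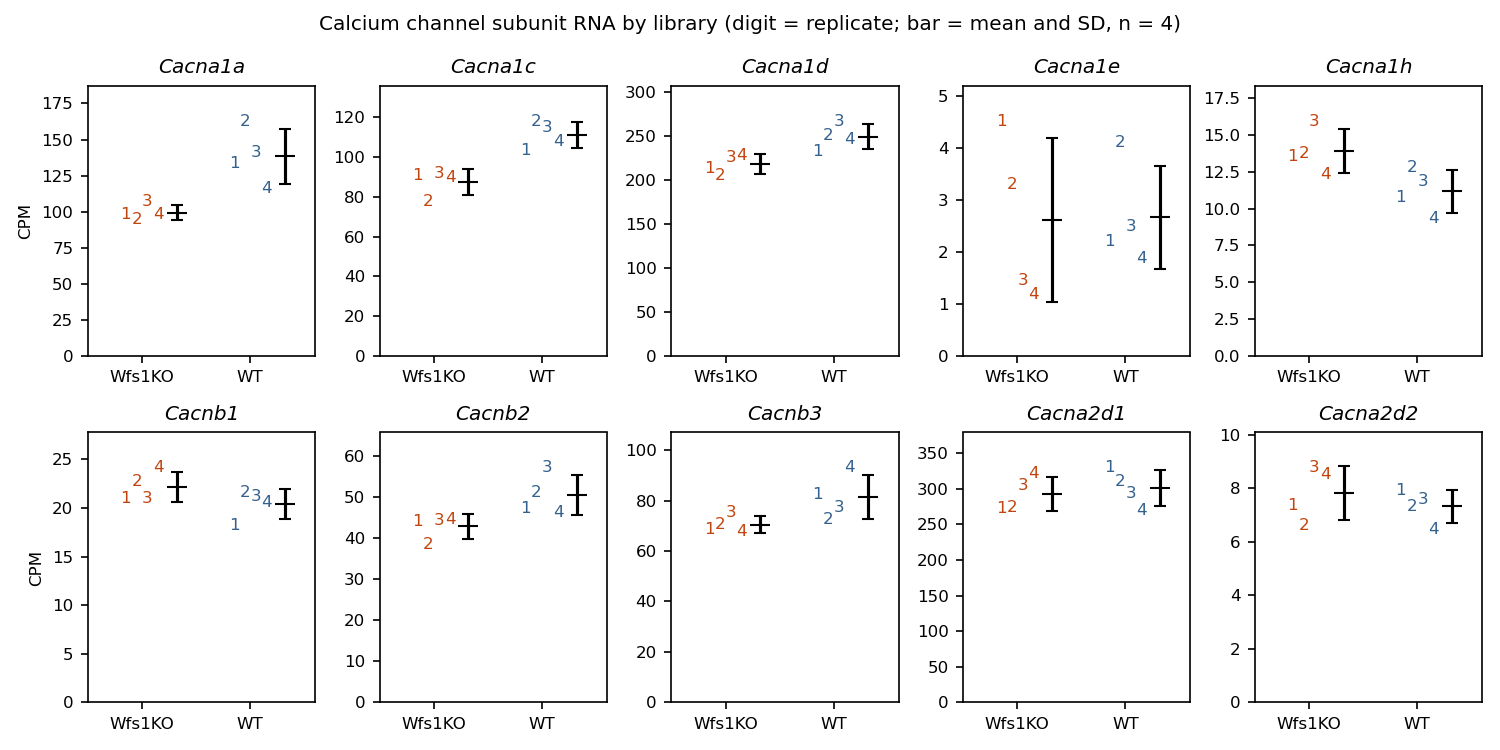
CPM of each of the 10 subunit genes in each library, Wfs1KO left and WT right, each digit being the replicate number and each bar the mean and SD (n = 4). In Cacna1a, Cacna1c, Cacna1d and Cacnb2 the 4 Wfs1KO libraries lie below the 4 WT libraries. In the other 6 genes the genotypes overlap.

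Promoter sequences of 3 of the 4 genes that fell, and of Cacna2d1 as the abundant gene that was not called, are shown to set side by side what genes of 1 channel complex carry at their starts. They run from 250 bases before the annotated start to 50 after it, on the gene's strand, 5′ to 3′ (RefSeq, GRCm38.p6, the build mm10 of the counts). Of the 10 genes 8 had an entry, and the start of each of these matched the start of the counted gene. Cacna1a, the remaining gene that fell, and Cacna1h had no entry. Capitals mark matches, on either strand, to 4 short motifs: GGGCGG (the GC box bound by SP factors), TGACG (a half-site bound by CREB), CAGATG (an E-box) and TGCTGA (a half-site bound by MAF factors).
Cacna1c, chr6:119108446-119108745, minus strand: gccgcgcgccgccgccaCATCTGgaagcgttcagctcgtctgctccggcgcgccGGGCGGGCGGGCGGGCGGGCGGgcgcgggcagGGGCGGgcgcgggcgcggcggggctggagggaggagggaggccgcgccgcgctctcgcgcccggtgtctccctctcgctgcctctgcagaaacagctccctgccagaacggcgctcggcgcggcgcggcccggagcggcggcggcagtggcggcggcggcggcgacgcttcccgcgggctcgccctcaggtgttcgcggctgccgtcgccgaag
Cacna1d, chr14:30353437-30353736, minus strand: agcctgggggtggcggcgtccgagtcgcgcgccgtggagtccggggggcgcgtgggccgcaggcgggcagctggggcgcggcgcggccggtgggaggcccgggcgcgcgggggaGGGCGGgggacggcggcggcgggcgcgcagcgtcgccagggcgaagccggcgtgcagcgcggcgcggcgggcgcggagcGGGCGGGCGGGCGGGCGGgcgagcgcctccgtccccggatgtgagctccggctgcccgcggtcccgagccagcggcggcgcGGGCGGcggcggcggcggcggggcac
Cacnb2, chr2:14604056-14604355, plus strand: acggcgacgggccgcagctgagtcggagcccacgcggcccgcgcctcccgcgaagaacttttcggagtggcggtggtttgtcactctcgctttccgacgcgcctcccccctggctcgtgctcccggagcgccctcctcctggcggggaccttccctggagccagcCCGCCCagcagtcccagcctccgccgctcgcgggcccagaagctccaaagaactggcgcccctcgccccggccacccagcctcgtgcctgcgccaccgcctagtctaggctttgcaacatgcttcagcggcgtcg
Cacna2d1, chr5:15934441-15934740, plus strand: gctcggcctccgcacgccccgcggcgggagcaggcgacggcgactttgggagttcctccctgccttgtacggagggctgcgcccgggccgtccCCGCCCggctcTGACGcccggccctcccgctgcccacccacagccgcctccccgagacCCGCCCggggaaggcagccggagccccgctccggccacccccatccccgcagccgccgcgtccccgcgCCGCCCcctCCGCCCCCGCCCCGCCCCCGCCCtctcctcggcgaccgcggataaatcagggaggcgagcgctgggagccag

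All 4 windows are rich in G and C, with 81.3% in Cacna1c, 87.3% in Cacna1d, 71.7% in Cacnb2 and 80% in Cacna2d1. The GC box stands 6 times in Cacna1c and 6 times in Cacna1d, in part in overlapping runs, once in Cacnb2 and 7 times in Cacna2d1. Of the genes shown, it is thus found both in those that fell and in Cacna2d1, which was not called. At least 1 GC box is present in 35.7% of 32851 promoter windows of this length. The E-box stands in Cacna1c, of these 4 windows, and in 17.2% of all windows. The CREB half-site stands in Cacna2d1 and in 20.8% of all windows. The MAF half-site stands in none of the 4 and in 19.5% of all windows. Of the windows not shown, all of genes that were not called, Cacnb1 has 5 GC boxes and 1 MAF half-site. Cacnb3 has 4 GC boxes, Cacna2d2 has 1, and Cacna1e has no match to any of these motifs. A match is a run of letters and not a measured binding site.

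Levels of different genes were compared as CPM per kilobase of the exon length given with the counts. Cacna2d1, the alpha2delta subunit whose loss lowers beta cell calcium currents in mice, led with 39.4 ± 3.23 CPM per kilobase in Wfs1KO and 40.4 ± 3.39 in WT (SD, n = 4 each). Cacnb3 followed at 25.1 ± 1.18 in Wfs1KO and 29.0 ± 3.13 in WT, and Cacna1d, the first of the pore genes, at 23.9 ± 1.21 in Wfs1KO and 27.3 ± 1.55 in WT. The libraries of these last 2 genes overlapped in both genotypes, so their order is not set. Cacna1a came next with 12.6 ± 0.679 CPM per kilobase in Wfs1KO and 17.6 ± 2.44 in WT, then Cacnb2 with 10.9 ± 0.752 in Wfs1KO and 12.8 ± 1.24 in WT.

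Cacna1c, at 6.33 ± 0.472 CPM per kilobase in Wfs1KO and 8.04 ± 0.478 in WT, lay clear of Cacnb1 in WT and overlapped it in Wfs1KO, where Cacnb1 had 6.33 ± 0.443, against 5.81 ± 0.439 in WT. Cacna1h and Cacna2d2 were low and overlapped each other, with Cacna1h at 1.70 ± 0.183 in Wfs1KO and 1.36 ± 0.180 in WT, and Cacna2d2 at 1.43 ± 0.183 in Wfs1KO and 1.34 ± 0.113 in WT. Cacna1e was last at 0.206 ± 0.125 CPM per kilobase in Wfs1KO and 0.211 ± 0.0782 in WT. Parts of this order depend on the length used. Over the union of its GENCODE M21 exons Cacnb2 had 3.24 CPM per kilobase in Wfs1KO and 3.81 in WT. That was below Cacnb1, with 4.90 in Wfs1KO and 4.50 in WT. It was also below Cacna1c, with 4.12 in Wfs1KO and 5.23 in WT. With these lengths Cacna1c lay below Cacnb1 in each Wfs1KO library. Cacna1h then lay above Cacna2d2 in Wfs1KO without overlap, and the 2 still overlapped in WT.

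**Figure D2:**
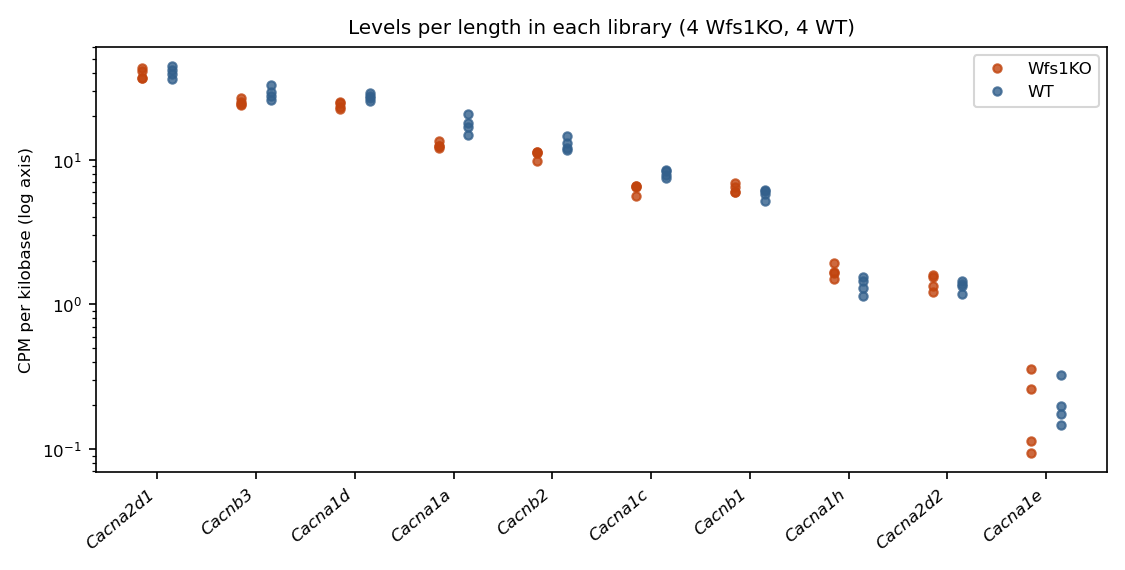
CPM per kilobase (log axis) of the 10 subunit genes in each library, ordered by their mean level, with Wfs1KO left of WT for each gene. Levels span from 0.206 CPM per kilobase for Cacna1e to 39.4 for Cacna2d1 in the Wfs1KO means.

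The pore genes were taken first. Cacna1d (NM_001302637, chromosome 14, 30039941 to 30353486 in mm10, minus strand) encodes an L-type pore that opens at fairly negative voltages and serves beta cells, the sinoatrial node and inner hair cells. It had 213, 204, 225 and 228 CPM in Wfs1KO replicates 1 to 4, against 232, 251, 266 and 246 CPM in WT replicates 1 to 4. The highest Wfs1KO library lay just below the lowest WT library. Means were 218 ± 11.04 CPM in Wfs1KO and 249 ± 14.1 CPM in WT (SD, n = 4 each), a log2 fold change of -0.19 (SE 0.06, 95% confidence interval -0.32 to -0.07, edgeR adjusted p = 0.0360, from 3906 to 6084 counts per library). The call is close to the threshold: it was lost when Wfs1KO replicate 1 or 2, or WT replicate 2, 3 or 4, was left out, with adjusted p up to 0.136.

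Of the exon bases of Cacna1d, 4.67% overlap Chdh on the opposite strand, and the counting used no strand option. Chdh, which encodes choline dehydrogenase, had 12.4 ± 0.850 CPM in Wfs1KO and 12.9 ± 2.34 CPM in WT (SD, n = 4 each, edgeR adjusted p = 0.834), far under the level of Cacna1d.

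Cacna1c (NM_001256002, chromosome 6, 118587240 to 119108495, minus strand) encodes the other L-type pore of beta cells, also the main one of heart and smooth muscle. Its values were 90.5, 77.7, 91.6 and 89.5 CPM in Wfs1KO replicates 1 to 4 and 103, 118, 115 and 108 CPM in WT replicates 1 to 4. The genotypes stood apart, and Wfs1KO replicate 2 was the lowest library. Means were 87.3 ± 6.51 CPM in Wfs1KO and 111 ± 6.60 CPM in WT (SD, n = 4 each), a log2 fold change of -0.34 (SE 0.06, 95% confidence interval -0.48 to -0.21, edgeR adjusted p = 0.00205). The call held with each of the 8 libraries left out in turn, with log2 fold changes of -0.38 to -0.29. No exon of Cacna1c overlaps a gene on the other strand in GENCODE M21.

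Cacna1a (NM_007578, chromosome 8, 84415364 to 84640249, plus strand) encodes the P/Q-type pore, which in neurons triggers transmitter release and in mouse beta cells carries part of the calcium current. Libraries held 98.1, 94.4, 107 and 98.0 CPM in Wfs1KO replicates 1 to 4, against 133, 163, 141 and 116 CPM in WT replicates 1 to 4. The Wfs1KO libraries lay close together and the WT libraries were spread out above them. The means of 99.4 ± 5.35 CPM in Wfs1KO and 138 ± 19.2 CPM in WT (SD, n = 4 each) gave a log2 fold change of -0.48 (SE 0.09, 95% confidence interval -0.67 to -0.29, edgeR adjusted p = 0.00204), the largest of the 10 in size among those called. It passed with each library left out in turn, at -0.55 to -0.39. Of its exon bases 3.81% overlap a gene on the opposite strand, Gm16183, whose level is not analysed here.

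Cacna1h (NM_021415, chromosome 17, 25374287 to 25433783, minus strand) encodes a T-type pore, opened by small depolarisations. It had 13.6, 13.7, 15.9 and 12.3 CPM in Wfs1KO replicates 1 to 4 and 10.7, 12.8, 11.8 and 9.33 CPM in WT replicates 1 to 4. A single library broke the separation, since Wfs1KO replicate 4 stood below WT replicate 2. Means were 13.9 ± 1.499 CPM in Wfs1KO and 11.2 ± 1.48 CPM in WT (SD, n = 4 each), a log2 fold change of 0.32 (SE 0.11, 95% confidence interval 0.08 to 0.55, edgeR adjusted p = 0.0595), so it was not called. With the replicate number as a block, the same fold change of 0.32 had an adjusted p of 0.0337 in edgeR, and Cacna1h was then the 1 channel gene of the 10 called higher. Without Wfs1KO replicate 4 or WT replicate 2 it also passed.

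Cacna1e (NM_009782, chromosome 1, 154392519 to 154725920, minus strand), the R-type pore gene, was near the limit of what these libraries count. It had 4.52, 3.29, 1.44 and 1.19 CPM in Wfs1KO replicates 1 to 4, from 129, 68, 25 and 24 counts. WT replicates 1 to 4 had 2.21, 4.10, 2.50 and 1.87 CPM, from 42, 71, 37 and 38 counts. The highest and the lowest library were both Wfs1KO, and the log2 fold change of -0.0017 (SE 0.43, 95% confidence interval -0.97 to 0.96, edgeR adjusted p = 0.999) has an interval too wide to set a direction. Its sign turned without Wfs1KO replicate 3 (0.18), without Wfs1KO replicate 4 (0.23) and without WT replicate 2 (0.28).

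**Figure D3:**
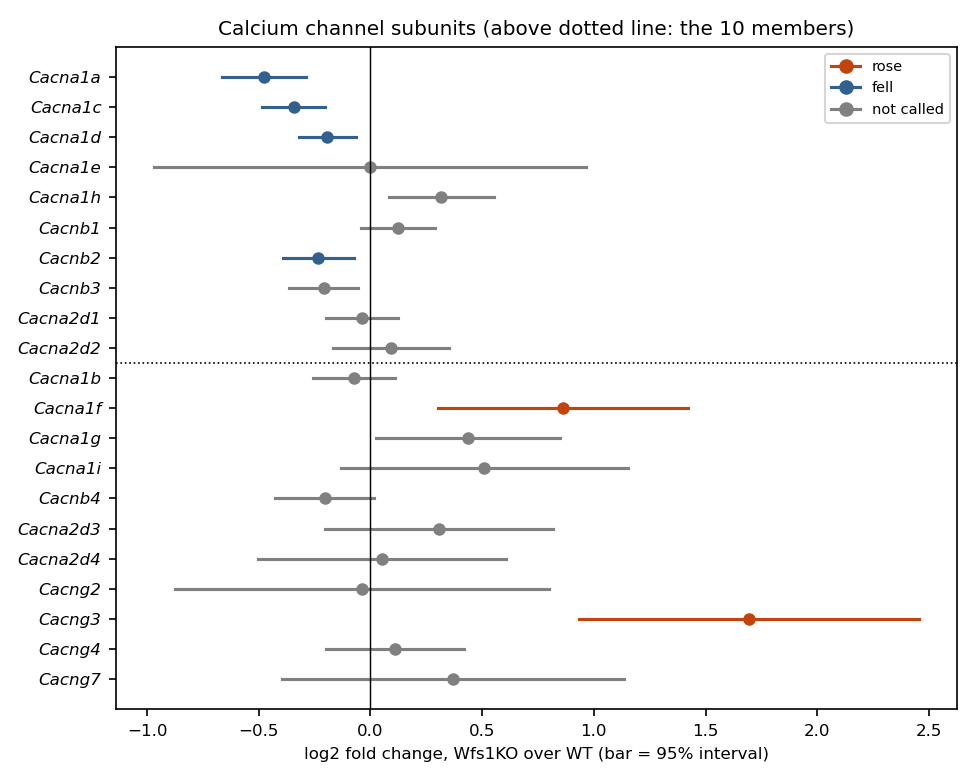
Log2 fold change of Wfs1KO over WT with its 95% interval for the 10 subunit genes (above the dotted line) and the 11 tested genes of the other 16 subunits (below it), coloured by call. Among the 10 genes the called ones all lie left of 0. Cacng3 lies farthest right at 1.69, on 6 to 7 counts per WT library.

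Beta subunits came next. Cacnb2 (NM_023116, chromosome 2, 14604306 to 14987908, plus strand), a beta subunit best known from heart L-type channels, had 44.0, 38.4, 44.3 and 44.5 CPM in Wfs1KO replicates 1 to 4. WT replicates 1 to 4 had 47.2, 51.1, 57.1 and 46.3 CPM. The gap between the genotypes was narrow, with Wfs1KO replicate 2 set apart at the low end. Means were 42.8 ± 2.96 CPM in Wfs1KO and 50.4 ± 4.89 CPM in WT (SD, n = 4 each), a log2 fold change of -0.23 (SE 0.07, 95% confidence interval -0.39 to -0.07, edgeR adjusted p = 0.0415). Leaving out Wfs1KO replicate 1 or 2, or WT replicate 2 or 3, ended the call, with adjusted p up to 0.141. Of the exon bases of Cacnb2, 7.32% overlap 3 genes on the opposite strand, whose levels are not analysed here.

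Cacnb3 (NM_007581, chromosome 15, 98634767 to 98644536, plus strand) is the most abundant beta subunit gene here per length; in mice without it, beta cells had more frequent calcium oscillations. It had 68.6, 70.6, 75.1 and 67.6 CPM in Wfs1KO replicates 1 to 4, against 82.6, 72.6, 77.1 and 93.0 CPM in WT replicates 1 to 4. Wfs1KO replicate 3 lay above WT replicate 2, and the other 3 Wfs1KO libraries lay below all WT libraries. Means were 70.5 ± 3.31 CPM in Wfs1KO and 81.3 ± 8.79 CPM in WT (SD, n = 4 each), a log2 fold change of -0.21 (SE 0.07, 95% confidence interval -0.36 to -0.05, edgeR adjusted p = 0.0595). The authors' deposited table gives Cacnb3 an adjusted p of 0.0409 and the same log2 fold change of -0.21, so its call depends on the method. In edgeR it passed without Wfs1KO replicate 3 or without WT replicate 2 (adjusted p down to 0.0204).

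Cacnb1 (NM_001282977, chromosome 11, 98001508 to 98022627, minus strand), the beta subunit of skeletal muscle channels, had 20.9, 22.7, 20.9 and 24.1 CPM in Wfs1KO replicates 1 to 4 and 18.2, 21.6, 21.2 and 20.5 CPM in WT replicates 1 to 4. The genotypes were interleaved. Means were 22.2 ± 1.56 CPM in Wfs1KO and 20.4 ± 1.54 CPM in WT (SD, n = 4 each), a log2 fold change of 0.12 (SE 0.08, 95% confidence interval -0.04 to 0.29, edgeR adjusted p = 0.301).

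The alpha2delta genes were not called. Cacna2d1 (NM_001110843, chromosome 5, 15934691 to 16374511, plus strand), whose product binds the drug gabapentin, had 273, 273, 305 and 321 CPM in Wfs1KO replicates 1 to 4. WT replicates 1 to 4 had 329, 309.6, 293 and 270.1 CPM. In replicates 1 and 2 both Wfs1KO libraries lay below both WT libraries, and in replicates 3 and 4 both lay above them. Over all libraries the log2 fold change was -0.04 (SE 0.07, 95% confidence interval -0.20 to 0.12, edgeR adjusted p = 0.788, from 4335 to 7791 counts per library). The gene lies 20.59 Mb from Wfs1 on the same chromosome. Cacna2d2 (NM_001174049, chromosome 9, 107399880 to 107529343, plus strand), an alpha2delta gene of brain, had 7.35, 6.63, 8.77 and 8.51 CPM in Wfs1KO replicates 1 to 4 and 7.94, 7.33, 7.56 and 6.48 CPM in WT replicates 1 to 4, with overlap. Its log2 fold change was 0.09 (SE 0.12, 95% confidence interval -0.17 to 0.35, edgeR adjusted p = 0.668).

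Because replicates 1 and 2 stood apart from 3 and 4, the genotype effect was also estimated in each pair of replicates, a fit added after the data were seen. Log2 fold changes in replicates 1 and 2 were -0.62 for Cacna1a, -0.39 for Cacna1c, -0.21 for Cacna1d and -0.25 for Cacnb2. In replicates 3 and 4 they were -0.33 for Cacna1a, -0.30 for Cacna1c, -0.18 for Cacna1d and -0.21 for Cacnb2. The 4 genes that fell had negative values in both pairs. For each of them all Wfs1KO libraries lay below all WT libraries, so any split had to give this. The signs in the pairs are therefore no further support. Cacna1h had 0.22 in replicates 1 and 2 and 0.42 in replicates 3 and 4, and Cacnb3 had -0.16 in replicates 1 and 2 and -0.26 in replicates 3 and 4. Taken by replicate number, Cacna1h was higher in 4 of 4 Wfs1KO libraries than in the WT library of the same number, and Cacnb3 was lower in 4 of 4. That the numbers pair the samples is assumed and not shown. Cacnb1 had 0.13 in replicates 1 and 2 and 0.12 in replicates 3 and 4.

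The sign turned between the pairs in 3 genes. Cacna2d1 had -0.23 in replicates 1 and 2 and 0.15 in replicates 3 and 4, Cacna2d2 had -0.12 in replicates 1 and 2 and 0.30 in replicates 3 and 4, and Cacna1e had 0.32 in replicates 1 and 2 and -0.72 in replicates 3 and 4. The difference between the pairs in Cacna2d1 was -0.38 (SE 0.11), with an adjusted p of 0.164 over all 15733 genes in edgeR's interaction test. None of the 10 genes passed that test after adjustment, as against 19 of all genes.

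Shares within a subunit class show the make-up of the channel RNA independently of the library scale. Summed over the 10 alpha1 genes in the table, members and the remaining pore genes together, CPM per kilobase came to 48.6, 45.6, 50.9 and 49.2 in Wfs1KO replicates 1 to 4, against 54.8, 62.7, 60.9 and 53.8 in WT replicates 1 to 4. All Wfs1KO sums lay below the WT sums. Cacna1d took 49.2% ± 1.19 of the alpha1 sum in Wfs1KO and 47.1% ± 2.62 in WT (SD, n = 4 each), with overlap. Cacna1a took 25.6%, 26.3%, 26.7% and 25.3% in Wfs1KO replicates 1 to 4, against 30.9%, 32.9%, 29.4% and 27.4% in WT replicates 1 to 4, a smaller share in each Wfs1KO library than in any WT library.

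Cacna1c had 13.0% ± 0.494 of the alpha1 sum in Wfs1KO and 13.9% ± 0.433 in WT (SD, n = 4 each), again without overlap. The T-type gene Cacna1h had a larger share in each Wfs1KO library than in any WT library, with 3.41%, 3.68%, 3.82% and 3.06% in Wfs1KO replicates 1 to 4 and 2.39%, 2.48%, 2.37% and 2.12% in WT replicates 1 to 4. Because the alpha1 sum was lower in each Wfs1KO library, a gene that keeps its level gains share. Shares of Cacna1f, Cacna1g and Cacna1b were also larger in each Wfs1KO library. Cacna1b, not called by its CPM, took 5.33% to 5.81% in Wfs1KO and 4.41% to 5.08% in WT. Between the L-type genes, the ratio of Cacna1d to Cacna1c per kilobase was 3.56, 3.98, 3.72 and 3.85 in Wfs1KO replicates 1 to 4, against 3.40, 3.22, 3.52 and 3.45 in WT replicates 1 to 4. The more abundant L-type gene thus outweighed the other by more in each Wfs1KO library. The alpha1 shares of Cacna1a, Cacna1c and Cacna1h parted the genotypes in the same directions with GENCODE exon lengths.

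Among beta genes the Wfs1KO sums of 43.4 ± 1.08 CPM per kilobase lay below the WT sums of 48.8 ± 2.37 (SD, n = 4 each, 4 genes) without overlap, and no share parted the genotypes. Cacnb3 took 57.9% ± 1.82 of the beta sum in Wfs1KO and 59.2% ± 4.01 in WT, Cacnb2 25.1% ± 1.52 in Wfs1KO and 26.3% ± 3.07 in WT, and Cacnb1 14.6% ± 1.18 in Wfs1KO and 11.9% ± 1.11 in WT. These shares depend on the length used. With GENCODE exon lengths Cacnb2 took 12.1% in Wfs1KO and 12.9% in WT, below Cacnb1 with 18.4% in Wfs1KO and 15.2% in WT. The alpha2delta sums overlapped at 41.8 ± 3.31 CPM per kilobase in Wfs1KO and 42.6 ± 3.56 in WT. Cacna2d1 made up 94.2% ± 0.510 of them in Wfs1KO and 94.9% ± 0.311 in WT, so this class was nearly 1 gene.

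Other genes of the channel family were examined too. Of 16 further subunit genes with an entry, 11 were tested, 2 rose, none fell and 9 were not called, with a median log2 fold change of 0.31. Over all tested genes 10.4% rose and 8.49% fell. The most abundant, the N-type pore gene Cacna1b, had 26.0 ± 1.18 CPM in Wfs1KO and 27.4 ± 3.44 CPM in WT (SD, n = 4 each, edgeR adjusted p = 0.616). Cacna1f, an L-type pore gene best known from the retina, rose to 2.63, 2.61, 2.19 and 2.62 CPM in Wfs1KO replicates 1 to 4, against 1.05, 1.79, 1.76 and 0.982 CPM in WT replicates 1 to 4 (log2 fold change 0.86, SE 0.26, edgeR adjusted p = 0.0321). It rests on 20 to 75 counts per library and did not pass without Wfs1KO replicate 1, 2 or 4 or without WT replicate 1 or 4 (adjusted p up to 0.0910 in edgeR). Cacng3, a gamma subunit gene better known for its role with AMPA receptors in brain, rose to 1.12, 1.06, 1.38 and 1.24 CPM in Wfs1KO replicates 1 to 4, against 0.315, 0.346, 0.473 and 0.344 CPM in WT replicates 1 to 4 (log2 fold change 1.69, SE 0.35, edgeR adjusted p = 0.00405). No Wfs1KO library held more than 32 counts of it.

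Proteins that bind or place these channels were examined next. Of 20 regulator genes 19 were tested, 5 fell, 2 rose and 12 were not called, with a median log2 fold change of -0.09. Over all tested genes 8.49% fell and 10.4% rose. The genotypes did not overlap in the same 7 that were called, against 22.6% of all tested genes. Rims3, which encodes a short RIM protein of the release site that binds channel beta subunits, fell to 40.9, 43.0, 38.2 and 44.6 CPM in Wfs1KO replicates 1 to 4, against 60.3, 74.8, 64.2 and 65.5 CPM in WT replicates 1 to 4 (log2 fold change -0.67, SE 0.07, edgeR adjusted p = 3.17e-05). Rims2, the RIM gene that acts in the docking of insulin granules, fell to 63.2 ± 3.54 CPM in Wfs1KO, against 78.1 ± 1.59 CPM in WT (-0.31, SE 0.05, edgeR adjusted p = 0.00125). Rimbp2, which links RIM proteins to the channel and was the most abundant of the list, fell to 428 ± 28.3 CPM in Wfs1KO, against 523 ± 35.9 CPM in WT (-0.29, SE 0.07, edgeR adjusted p = 0.00915).

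Jph3, a junctophilin that ties the endoplasmic reticulum to the plasma membrane, fell to 39.6 ± 2.10 CPM in Wfs1KO, against 51.8 ± 3.17 CPM in WT (SD, n = 4 each, log2 fold change -0.39, SE 0.06, edgeR adjusted p = 6.25e-04). Cbarp, named after its values were seen, encodes a membrane protein that binds beta subunits and dampens channel activity. It fell to 139.9 ± 8.56 CPM in Wfs1KO, against 161 ± 9.95 CPM in WT (-0.20, SE 0.06, edgeR adjusted p = 0.0344), and did not pass without Wfs1KO replicate 1 or 4 or without WT replicate 3 (adjusted p up to 0.130 in edgeR). The 2 genes that rose also act through the beta subunit. Gem, a small GTPase of the RGK family that inhibits the channels, rose to 24.6 ± 3.16 CPM in Wfs1KO, against 17.9 ± 1.18 CPM in WT (0.46, SE 0.09, edgeR adjusted p = 0.00307). Ahnak, a very large scaffold protein, rose to 60.4 ± 11.6 CPM in Wfs1KO, against 41.8 ± 3.04 CPM in WT (0.54, SE 0.12, edgeR adjusted p = 0.0106).

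**Figure D4:**
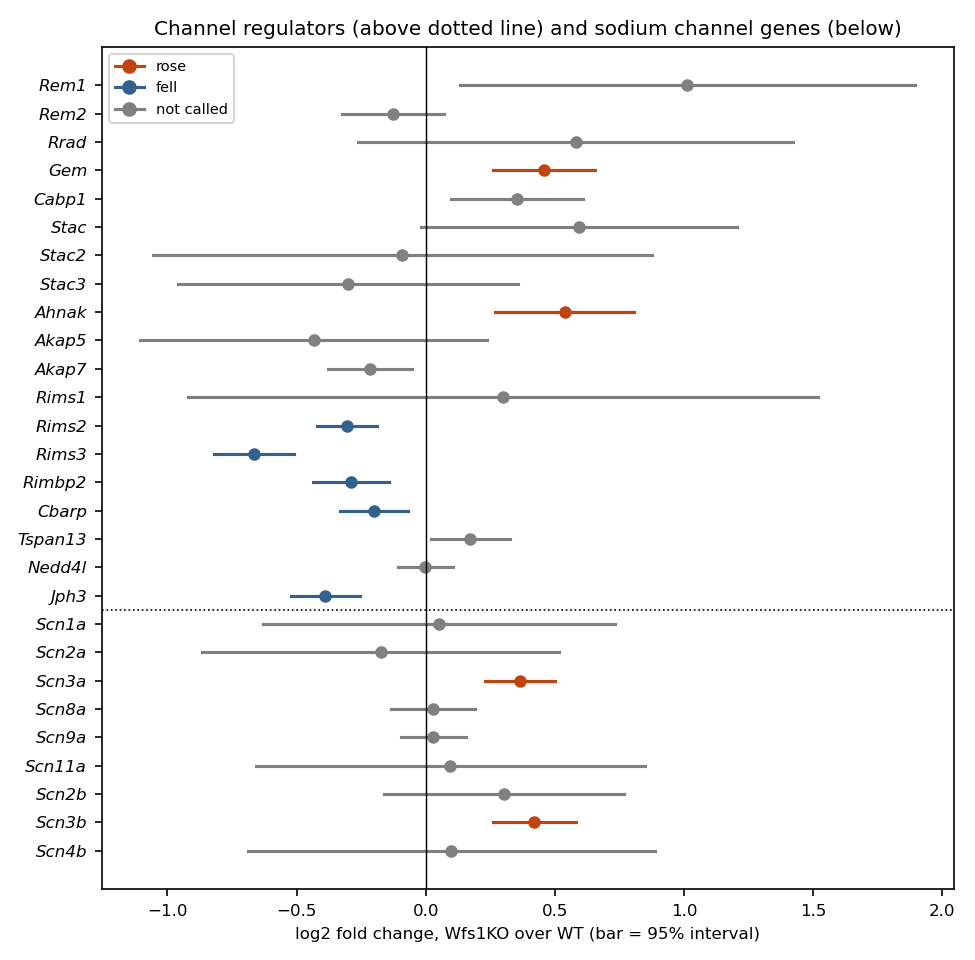
Log2 fold change of Wfs1KO over WT with its 95% interval for 19 tested channel regulators (above the dotted line) and 9 of the 10 tested voltage-gated sodium channel genes (below it), coloured by call. Rims3 is the called regulator farthest left at -0.67, and the called sodium channel genes shown, Scn3a and Scn3b, lie right of 0.

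Voltage-gated sodium channels were taken for comparison. Of 13 genes 10 were tested, 2 rose, 1 fell and 7 were not called, with a median log2 fold change of 0.07. The shares over all tested genes were 10.4% risen and 8.49% fallen. Scn9a, the most abundant of them, had 97.6 ± 7.15 CPM in Wfs1KO and 95.7 ± 1.44 CPM in WT (SD, n = 4 each, edgeR adjusted p = 0.787). Scn3a, a pore gene of mouse islets, rose to 61.6 ± 3.78 CPM in Wfs1KO, against 47.8 ± 2.98 CPM in WT (log2 fold change 0.37, SE 0.06, edgeR adjusted p = 0.00103). The accessory subunit gene Scn3b rose to 18.5 ± 0.787 CPM in Wfs1KO, against 13.8 ± 0.976 CPM in WT (0.42, SE 0.08, edgeR adjusted p = 0.00146).

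Markers of islet cell types also moved with genotype, and their part in the channel values was not tested except as given here. Their counts stand beside 8.49% fallen and 10.4% risen over all tested genes. Of 10 beta cell markers 8 fell and 1 rose (median log2 fold change -0.52), and of 8 alpha cell markers 1 rose (0.16), with summed levels of 18786 to 26136 CPM in Wfs1KO and 15796 to 20726 CPM in WT. Of 7 delta and PP cell markers 4 rose (0.33), summing to 6432 to 9017 CPM in Wfs1KO and 5252 to 6688 CPM in WT. All 12 endothelial markers rose (0.53), with sums of 834 to 977 CPM in Wfs1KO and 606 to 694 CPM in WT. Of 13 tested markers of stellate cells, pericytes and smooth muscle, the last of which also uses Cacna1c, 5 rose (0.62), with sums of 363 to 429 CPM in Wfs1KO and 218 to 309 CPM in WT.

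Of 10 ductal markers 3 rose (median log2 fold change -0.06), with sums of 747 to 843 CPM in Wfs1KO and 712 to 772 CPM in WT. Of 10 macrophage and leukocyte markers none was called (0.47), with sums of 196 to 505 CPM in Wfs1KO and 200.1 to 326 CPM in WT. Of 10 neuron and Schwann cell markers 1 rose (0.12), with sums of 262 to 332 CPM in Wfs1KO and 213 to 297 CPM in WT. Acinar markers were not called (0 of 12, -0.41) but varied widely, from 9880.0 to 68339 CPM in Wfs1KO and from 32079.6 to 71945 CPM in WT. With their summed level as a covariate in edgeR, Cacna1a and Cacna1c still passed, and Cacna1d (adjusted p = 0.0943) and Cacnb2 (adjusted p = 0.107) did not. With the endothelial sum as a covariate, which itself parted the genotypes, none of the 10 genes passed: Cacna1a had -0.50 (adjusted p = 0.475), Cacna1c -0.64 (adjusted p = 0.160), Cacna1d -0.49 (adjusted p = 0.205) and Cacnb2 -0.67 (adjusted p = 0.168). In that fit these 4 log2 fold changes were no nearer to 0. Those of Cacna1h (0.15), Rims3 (-0.34), Jph3 (-0.18), Gem (0.14) and Cacng3 (0.79) were nearer, each by over 1.5 times. Cacna1e moved from -0.0017 to 1.85. Since the covariate parted the genotypes, the fit cannot separate it from genotype. These shifts are therefore not interpreted, and their cause was not tested. Over all, 28 genes passed as higher and 61 as lower, against 1635 higher and 1335 lower without the covariate.

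**Figure D5:**
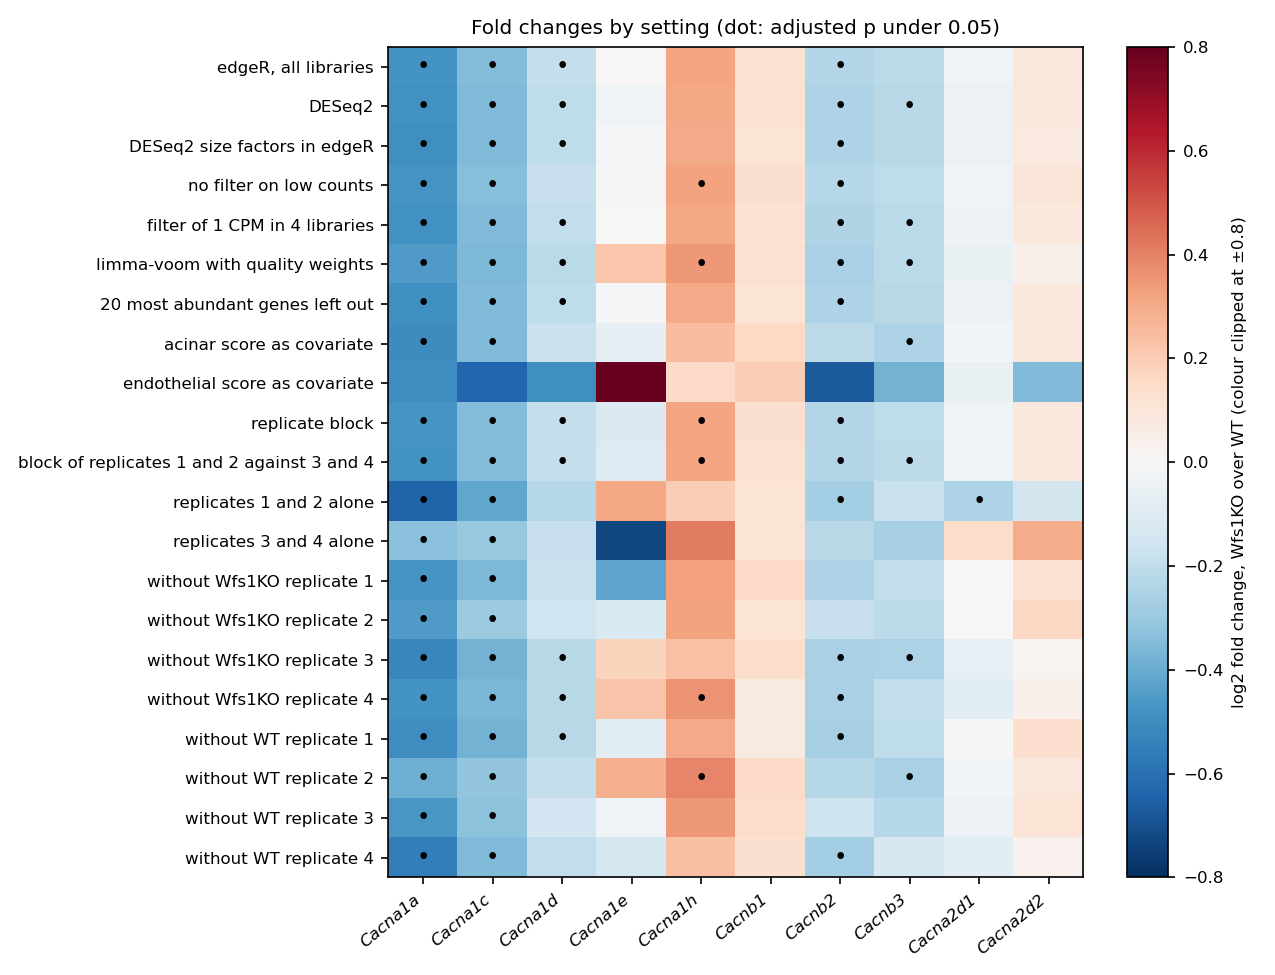
Log2 fold change of the 10 subunit genes, Wfs1KO over WT, by colour (clipped at ±0.8) under each setting tried, a dot marking an adjusted p under 0.05. Cacna1a and Cacna1c carry a dot in every setting but the endothelial covariate, while Cacna1d, Cacna1h, Cacnb2, Cacnb3 and, with replicates 1 and 2 alone, Cacna2d1 gain or lose it.

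In the authors' deposited table the same 4 genes fell, with log2 fold changes of -0.46 for Cacna1a, -0.34 for Cacna1c, -0.20 for Cacna1d and -0.23 for Cacnb2, and adjusted p of 0.0101 for Cacna1d and 0.0318 for Cacnb2. That table adds Cacnb3 and, like edgeR, does not call Cacna1h, with 0.28 and an adjusted p of 0.0799.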

How the data were processed

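Per the labels' protocols, islets were isolated by collagenase digestion and a density gradient, and poly(A) RNA was selected for NEBNext Ultra II libraries. Per the submitters' processing notes, bcl2fastq, STAR 2.6.0a, HOMER 4.11.1 and DESeq2 were used with mm10. Per the file headers, the deposited values are raw counts of reads in exons, condensed to 1 entry per gene, with no strand option and replicates not pooled. The log2 fold changes and p-values named as the authors' are those in the authors' deposited table, of Wfs1KO over WT, with settings not given in the sources used here. Their transformed log2 values per library were not used here.

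Tests used edgeR 4.0.16 under R 4.3.3 (TMM scaling, filterByExpr by genotype with minimum count 10 and minimum total count 15, robust quasi-likelihood F-test), and p-values were adjusted by Benjamini-Hochberg over all 15733 tested genes. The common biological coefficient of variation was 10.7%. SE is the absolute log2 fold change divided by the square root of F. CPM use TMM-scaled library sizes. The replicate block was tried because same-numbered Wfs1KO and WT samples deviated together, with correlations over genes (which are not independent replicates) of 0.153, 0.443, 0.269 and 0.188. Differently numbered samples were not compared in this way, so these values do not show that the numbers pair the samples. The numbers come from the labels.

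The 10 genes, the lists of other subunits, regulators, sodium channels and markers, the tests and the alternatives were chosen with earlier results of these data known. Named were all 10 genes, Wfs1, and of each related list the most abundant tested gene and the called genes with a mean of at least 1 CPM in a genotype, up to 6 by smallest adjusted p. A gene that this rule takes is counted but not reported here. Of the marker lists, sums and counts are given. Alternatives were limma-voom with quality weights (limma 3.58.1), DESeq2 1.42.0, its size factors in edgeR, the 20 most abundant genes left out, a minimum of 1 CPM in 4 libraries or no filter, acinar or endothelial marker sums as a covariate, blocks, pairs of replicates, and each library left out. Exon overlaps and union lengths are from GENCODE M21, promoters from RefSeq.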

Additional observations from a re-analysis of the deposited data

Results flagged for a closer look

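In 2 genes, 1 of the 4 Wfs1KO libraries stood far from the rest of its group, by Dixon's test of the gap against the range (a test that also marks some groups by chance). Cacna1c had 77.7 CPM in Wfs1KO replicate 2, with the next library at 89.5 CPM (ratio 0.849). Cacnb2 had 38.4 CPM in Wfs1KO replicate 2, with the next at 44.0 CPM (ratio 0.915). Without that library Cacna1c kept a log2 fold change of -0.29 and passed in edgeR, while Cacnb2 had -0.17 and did not.

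The effect on Cacna2d1 differed in direction between pairs of replicates, with the Wfs1KO libraries lower in replicates 1 and 2 and higher in replicates 3 and 4. The difference of the log2 fold changes was -0.38 (SE 0.11, adjusted p = 0.164 in edgeR's interaction test).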

How the results depend on the processing

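Leaving out each of the 8 libraries in turn gave log2 fold changes of -0.55 to -0.39 for Cacna1a, -0.38 to -0.29 for Cacna1c, -0.22 to -0.15 for Cacna1d, -0.42 to 0.28 for Cacna1e, 0.24 to 0.39 for Cacna1h, 0.07 to 0.15 for Cacnb1, -0.27 to -0.17 for Cacnb2, -0.26 to -0.14 for Cacnb3, -0.092 to 0.012 for Cacna2d1 (above 0 without WT replicate 1) and 0.02 to 0.16 for Cacna2d2. Of the 10 genes 2 to 5 were then called lower (2 without Wfs1KO replicate 1, Wfs1KO replicate 2 or WT replicate 3) and 0 to 1 higher. Over all genes 1354 to 1460.0 were higher and 1019 to 1299 lower. Other subunits numbered 1 to 2 higher, regulators 2 to 3 higher and 4 to 6 lower, and sodium channel genes 2 higher and 1 lower. Cacna1f lost its call without Wfs1KO replicate 1, 2 or 4 or WT replicate 1 or 4.

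The endothelial covariate gave -0.50 for Cacna1a, -0.64 for Cacna1c, -0.49 for Cacna1d, -0.67 for Cacnb2, 1.85 for Cacna1e, -0.35 for Cacna2d2 and -0.20 for Scn9a. It left 0 of the 10 genes lower, 28 genes higher and 61 lower over all, and 0 calls among other subunits, regulators and sodium channels, with 0.15 for Cacna1h, -0.34 for Rims3, -0.18 for Jph3, 0.14 for Gem and 0.79 for Cacng3. The acinar covariate ended the calls of Cacna1d (-0.18) and Cacnb2 (-0.21). Replicates 1 and 2 alone gave -0.23 for Cacna1d (adjusted p = 0.0507), 0.31 for Cacna1e, -0.25 for Cacna2d1 (adjusted p = 0.0381), -0.14 for Cacna2d2 and -0.055 for Scn9a. Replicates 3 and 4 alone ended the calls of Cacna1d (-0.18) and Cacnb2 (-0.22), gave 0.15 for Cacna2d1, gave 0.27 for Ahnak (still called), left 2 of the 10 lower, and called 964 genes higher and 882 lower. No filter ended the call of Cacna1d (-0.19, adjusted p = 0.103).

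Cacna1h passed, as the 1 of the 10 called higher, with no filter (0.32, adjusted p = 0.0499), limma-voom (0.35, 0.0296), the replicate block (0.32, 0.0337) and the 2-level block (0.32, 0.0493). No other call among the 10 changed with the replicate block. Cacnb3 passed with DESeq2 (-0.22, 0.0417), the 1 CPM filter (-0.21, 0.0435), limma-voom (-0.22, 0.0445), the acinar covariate (-0.25, 0.0445) and the 2-level block (-0.21, 0.0385), and limma-voom gave 0.22 for Cacna1e. At an adjusted p under 0.01, 2 of the 10 were lower, with 962 genes higher and 782 lower over all. At 0.10 Cacnb3 joined the genes called lower and Cacna1h was called higher, each with an adjusted p of 0.0595 in edgeR. Among other subunits DESeq2 called 1 higher, giving Cacng3 no adjusted p, as did each pair of replicates alone. With replicates 3 and 4 alone 1 regulator was higher and 3 lower, and 1 sodium channel gene was higher; with replicates 1 and 2 alone 0 were lower. The cause of these changes was not tested. Cacna1e, Cacna1f and Cacng3 had the fewest counts of the named genes, 129 or fewer per library.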
